A study of Mus musculus with 6 samples.

Results

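DEAD-box and DEAH-box RNA helicases are enzymes that use ATP to open RNA duplexes or to strip proteins from RNA, and they are named after the residues of a conserved motif in their core. Different members drive pre-mRNA splicing, assembly of ribosomes in the nucleolus, export, translation and decay of mRNA, and the sensing of viral RNA. In the marrow, myeloid precursors make many ribosomes while they divide, and they reduce this machinery as they mature. Members of the family were taken as all genes whose array annotation gave a single symbol beginning with Ddx or Dhx and a digit, each read by its brightest probe set over the 6 arrays. This gave 51 genes (35 Ddx and 16 Dhx symbols) of 18193 genes on the array. No expression difference entered that choice, although the family was picked with earlier results of these data known.

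RNA was hybridised to Affymetrix arrays from marrow cells of femur and tibia. The donors were female HdcGFP mice (C57BL/6 background, which 2 samples spell C57/BL6), in which a green fluorescent reporter marks Hdc, the gene of the histamine-making enzyme histidine decarboxylase. Cells carrying CD11b and Gr1 were sorted into HdcGFP-/lo cells (GFP_min, 3 samples) and HdcGFP+/hi cells (GFP_plus, 3 samples), with no treatment given and the mice's age not given in the labels. Reporter level is thus the sole difference the labels give between the groups, and the samples are not tied to individual mice, so each p-value reflects spread among samples that may be technical repeats. One sample, GFP_min b, is described as Gr1-negative in 1 of its labels and Gr1-positive in another. Where a helicase described by its own values loses or gains its call without that sample, the value is given. Members given only by name or as a range enter the counts without that sample.

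Array medians lay between 2.82 and 2.88 on the deposited log2 scale, and arrays correlated at 0.996 to 0.997 within a group and at 0.978 to 0.982 between groups. Neutrophil markers were bright in both groups (list mean 13.60 to 13.64 in GFP_min and 13.78 to 13.84 in GFP_plus, 10 markers). Of 11 tested monocyte markers all 11 were lower in GFP_plus, with a list mean of 11.93 to 12.01 in GFP_min and 6.91 to 7.04 in GFP_plus. Dendritic cell markers were lower for 5 of 6 tested (means 5.69 to 5.96 and 3.11 to 3.20), and basophil and mast cell markers were higher for 5 of 6 and lower for 1 (means 3.28 to 3.30 and 4.90 to 4.97). Erythroid markers were higher for 2 of 2 tested, B cell markers lower for 1 of 6, T and NK cell markers higher for 1 and lower for 2 of 4, and proliferation genes higher for 4 and lower for 2 of 11. These counts are on the deposited scale at an adjusted p under 0.05. Of all tested genes, 27.6% were lower and 21.0% higher by that rule. Without GFP_min b 1 erythroid marker and 6 dendritic cell markers were called. The erythroid count was also 1 without GFP_min a, GFP_min c, GFP_plus a or GFP_plus b, and the lower basophil marker lost its call without any 1 of the 6 samples. Poly-A centring, described below, turned the median of the proliferation genes from 0.11 to −0.31, that of the B cell markers from 0.08 to −0.34 and that of the neutrophil markers from 0.07 to −0.35, and ribosomal centring turned that of the T and NK cell markers from −0.36 to 0.41. The 3' minus 5' signal of Gapdh, a sign of RNA quality, was 0.26 to 0.37 in GFP_min and 0.59 to 0.66 in GFP_plus, and for beta-actin the gap was 0.79 to 0.83 and 0.82 to 0.90. The Gapdh gap was thus larger on every GFP_plus array, while the beta-actin gaps of the groups overlapped. The part of RNA quality in the helicase differences given here was not tested.

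Short promoter stretches of 4 members that the results turn on are shown first, because Ddx10 and Dhx33 were among the 3 members with the largest falls and Ddx60 and Ddx58 were the RNA sensing helicases called higher. They are read 5′ to 3′ on the gene's strand from RefSeq promoter windows of build GRCm38.p6, with motif matches in capitals. In Ddx60 and Ddx58 the capitals mark the core of the interferon-stimulated response element (GAAA, any 2 bases and GAAA again, or the reverse complement in Ddx58), in Ddx10 an ETS factor site (CCGGAAG) and in Dhx33 an E-box (CACGTG).
Ddx60: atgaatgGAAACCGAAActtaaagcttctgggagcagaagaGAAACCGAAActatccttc
Ddx58: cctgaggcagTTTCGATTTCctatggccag
Ddx10: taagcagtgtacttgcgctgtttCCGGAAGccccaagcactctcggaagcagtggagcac
Dhx33: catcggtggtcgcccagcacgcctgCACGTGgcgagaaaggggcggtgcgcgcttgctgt
The Ddx60 stretch lies at chr8:61928027-61928086 on the plus strand, upstream of the start, and holds 2 matches. The Ddx58 stretch spans the start on the minus strand (chr4:40239804-40239833). Those of Ddx10 (chr9:53248263-53248322) and Dhx33 (chr11:71004433-71004492) lie upstream on the minus strand. Whether a factor binds at any of these letters was not measured here.

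Helicase transcripts were mostly lower in cells with high Hdc reporter signal on the deposited scale. Of the 51 genes, 47 passed the level filter and were tested with limma, and 27 of these were lower and 5 higher in GFP_plus at an adjusted p under 0.05. Over all 10807 tested genes, 27.6% were lower and 21.0% higher by the same rule, against 57.4% and 10.6% of the helicases. The median difference of the helicases was −0.39 log2, beside 0.0024 for all tested genes. Without GFP_min b, 22 were lower and 5 higher. In 30 helicases all 3 GFP_plus arrays lay below all 3 GFP_min arrays, and in 6 they lay above, where 32.1% and 27.2% of all tested genes did so. A lower signal in a bulk sample can mean fewer cells of a type or less RNA per cell, and these cannot be told apart here.

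The direction of this shift depends on how the arrays are scaled. Relative to the deposited scale, centring on ribosomal protein genes added 0.77 to every difference. The array medians of these 49 genes were thus on average 0.77 lower in GFP_plus as deposited. With ribosomal centring 78.6% of all tested genes were called higher, and which scaling is right was not tested. Centring on the array median over tested probe sets (median centring) added 0.20, and centring on bacterial poly-A control RNAs −0.42. Because a centring moves every gene alike, the helicase median stays 0.40 below the median of all tested genes under each centring by construction. Quantile normalization, which does not move genes alike, gave 0.34 below. Of the 27 falls, 7 kept their sign under all 4 other scalings and 20 turned positive with ribosomal centring. Of the 5 rises, those of Ddx60 and Ddx11 kept their sign, while 3 turned negative with poly-A centring. Higher members made up 15.6% of the called helicases as deposited, 21.4% after quantile normalization, 37.0% with median centring and 93.1% with ribosomal centring. Over all called genes the same shares were 43.2%, 50.2%, 68.2% and 91.1%. With poly-A centring limma called 36 members lower and 0 higher, and 1 higher at an unadjusted p under 0.05.

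**Figure D1:**
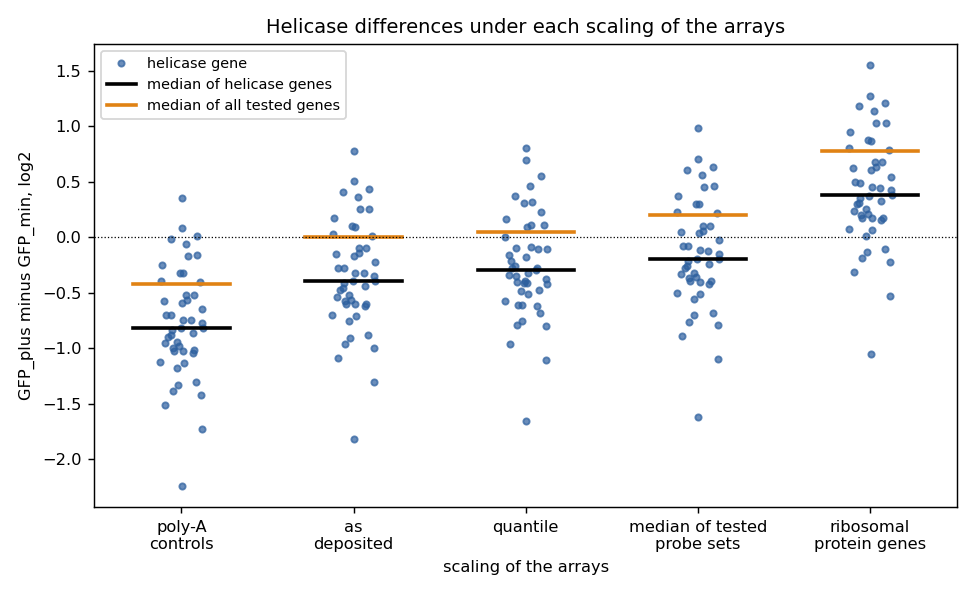
Difference between GFP_plus and GFP_min (log2) of each of the 47 tested helicase genes (blue points) under 5 scalings of the arrays, with the median of the helicases (black) and of all tested genes (orange). The helicase median lies 0.34 below that of all genes after quantile normalization and 0.40 below it as deposited, a gap that the centrings cannot change, and it crosses 0 with ribosomal centring, where it is 0.38.

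**Figure D2:**
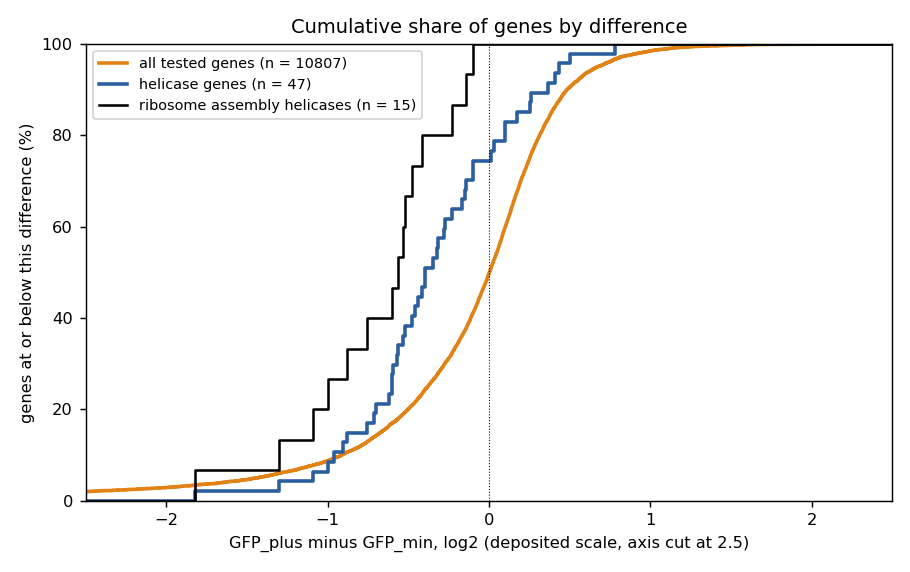
Cumulative share of genes (%) against the difference between GFP_plus and GFP_min (log2, deposited scale) for all 10807 tested genes, the 47 tested helicases and the 15 tested ribosome assembly helicases. All 15 of the last group lie below 0 on this scale, while their median is 0.21 with ribosomal centring.

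Helicases that work on ribosome assembly in the nucleolus held the largest falls. Of the 16 in this group 15 were tested, and 12 fell (80%, against 27.6% of all tested genes). Their median difference was −0.56, or 0.21 under ribosomal centring, and 10 to 12 fell with 1 sample left out (11 without GFP_min b). Ddx10, which acts with U3 small nucleolar RNA on the small subunit precursor, read 6.89, 7.02 and 7.02 on GFP_min a, b and c and 5.31, 5.14 and 5.02 on GFP_plus a, b and c. The groups were far apart, and the transcript was 3.54-fold lower in GFP_plus (−1.82, SE 0.13, limma adjusted p = 3.72e-06). Its other tested probe set differed by −0.72, so both showed a fall but of different size.

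Ddx27, a helicase of large subunit assembly, read 5.64, 5.64 and 5.58 on the GFP_min arrays and 4.28, 4.44 and 4.24 on the GFP_plus arrays, in the order a, b, c that is kept below. It fell 2.47-fold (−1.30, SE 0.13, adjusted p = 3.47e-05). Ddx10 and Ddx27 were the members still called lower by limma with ribosomal centring, at −1.05 and −0.53. Dhx33, which takes part in ribosomal RNA synthesis, read 4.56, 4.79 and 4.32 against 3.48, 3.66 and 3.26. Its fall of 1.09 on the log2 scale (SE 0.16, adjusted p = 0.00044) was larger than the spread within either group, and it was not called with ribosomal centring (−0.32). These 3 genes were the members that fell by at least 1 log2, or 3 of 47, where 8.74% of all tested genes did. No member rose by that much (the highest difference was 0.78), where 1.52% of all tested genes did.

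Ddx18, a nucleolar helicase needed for both subunits, read 6.20, 6.12 and 6.23 in GFP_min and 5.27, 5.32 and 5.32 in GFP_plus. The arrays of each group lay close together, and the difference was −0.88 (SE 0.12, adjusted p = 0.000307), with −1.82 at its other tested probe set. Ddx54, of large subunit assembly, read 9.64, 9.68 and 9.60 against 9.08, 9.07 and 8.98 (−0.60, SE 0.07, adjusted p = 0.000133). Of its 3 tested probe sets 2 were called lower and the third differed by 0.05. The brightest is of the kind marked as able to bind related transcripts, and the other called set, at −0.62, is not. The Ddx54 difference turned to 0.17 with ribosomal centring, whereas that of Ddx18 stayed at −0.11 without a call.

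The close paralogues Ddx21 and Ddx50, both nucleolar proteins, differed in their readings. Ddx21 fell from 5.91 ± 0.26 to 4.92 ± 0.12 (mean ± SD, n = 3; difference −0.996, limma adjusted p = 0.000769; −0.22 and not called with ribosomal centring), and its second probe set fell by 1.07. Ddx50 was 9.66 ± 0.12 and 9.56 ± 0.10, a difference of −0.10 (adjusted p = 0.389) that turned to 0.10 with median centring and to 0.68 with ribosomal centring. All 3 tested probe sets of Ddx50 went uncalled, within −0.10 to −0.05. The difference between the paralogues was itself not tested. The other members that fell were Ddx51, Ddx55, Ddx49, Ddx52, Ddx24 and Ddx56, by 0.42 to 0.76, and with ribosomal centring their differences were 0.02 to 0.36. Ddx47 and Ddx31 were not called, and Dhx37 lay below the array medians in all 6 samples and was not tested.

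Ribosome assembly factors without helicase activity were mostly lower on the deposited scale. Of 35 such genes 33 were tested, and 23 were lower and 1 higher (69.7% and 3.03%, against 27.6% and 21.0% of all tested genes). The median was −0.55, against 0.22 under ribosomal centring. Fibrillarin (Fbl), the methyltransferase of box C/D small nucleolar RNPs, was 4.01-fold lower in GFP_plus. Pes1, a large subunit assembly factor, differed by −1.78 and Nop10, of the pseudouridylation RNPs, by −0.95. The member that rose was Polr1a, the large subunit of RNA polymerase I, by 0.93, and it is named here after its value was seen.

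**Figure D3:**
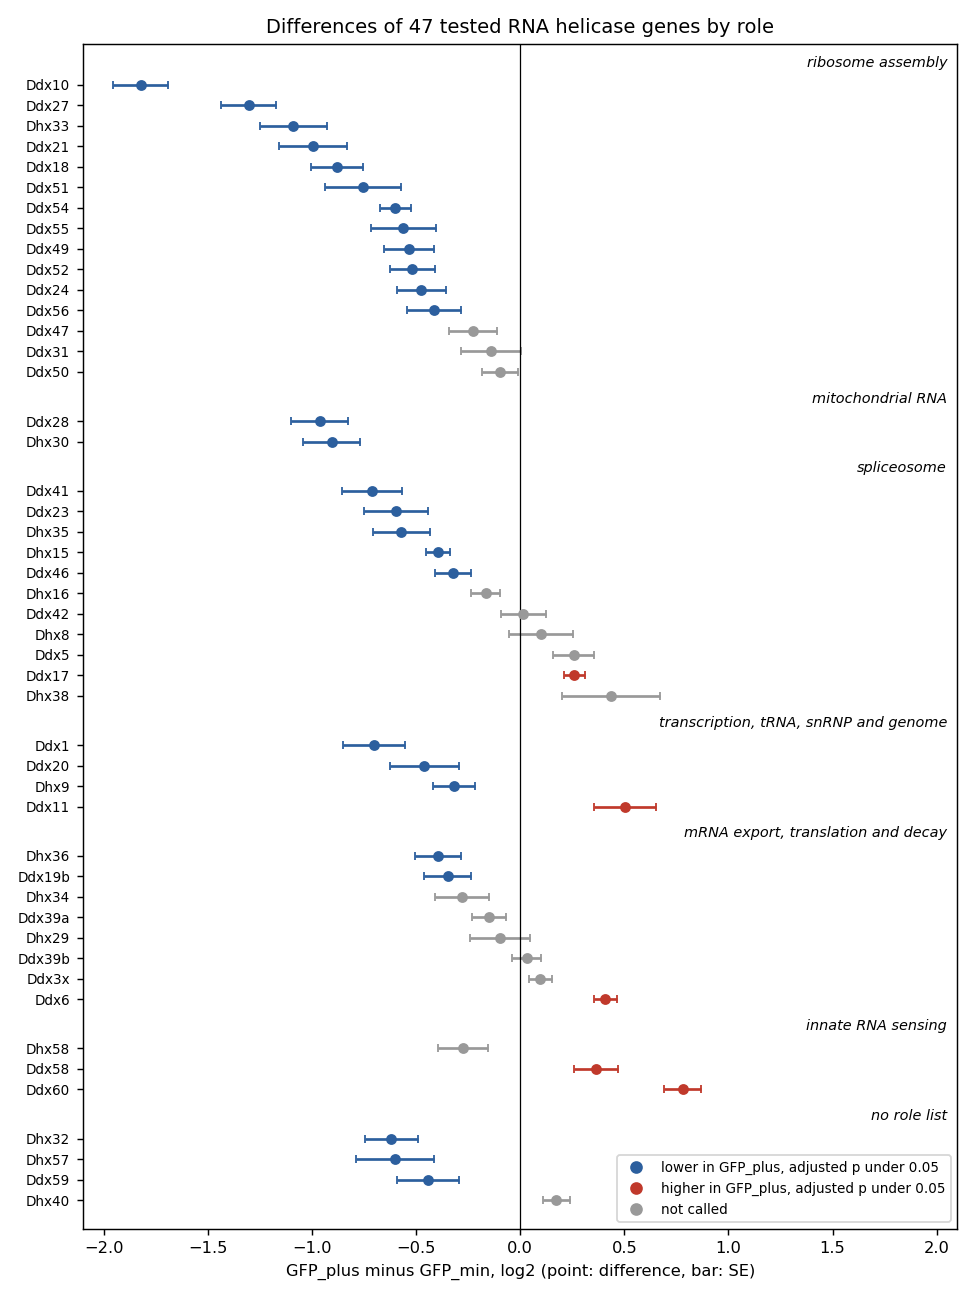
Difference between GFP_plus and GFP_min (log2, deposited scale; bars are SE, n = 3 arrays a group) of the 47 tested helicases, ordered within roles. The ribosome assembly group runs from −1.82 to −0.10, while Ddx60 at 0.78 is the largest rise; falls smaller than 0.77 turn positive with ribosomal centring and Ddx6, Ddx17 and Ddx58 turn negative with poly-A centring.

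Both helicases of mitochondrial RNA fell, where 27.6% of all tested genes did. Ddx28, which assembles the large mitochondrial ribosomal subunit, read 4.67, 4.98 and 4.72 against 3.78, 3.91 and 3.79, a 1.95-fold fall (−0.96, SE 0.14, adjusted p = 0.000326). Dhx30, found in mitochondrial RNA granules, read 7.41, 7.43 and 7.39 against 6.71, 6.57 and 6.24 (−0.91, SE 0.14, adjusted p = 0.000499). GFP_plus c was the lowest of its group, and all 3 GFP_plus arrays lay below GFP_min in both genes. With ribosomal centring the differences were −0.19 and −0.13 and not called. Of 4 tested Dhx30 probe sets 3 were called lower.

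**Figure D4:**
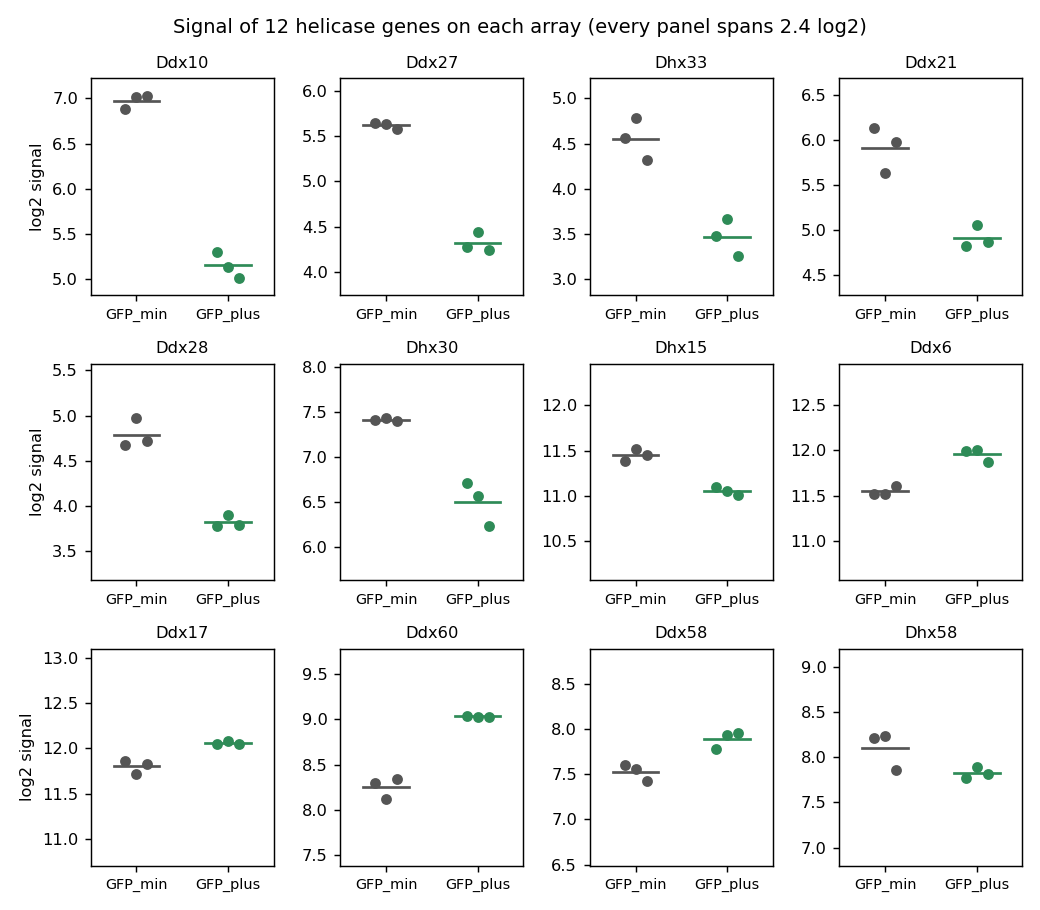
Log2 signal of 12 helicase genes on each of the 6 arrays (points; lines are group means; every panel spans 2.4 log2). The 7 genes from Ddx10 to Dhx15 lie lower on all GFP_plus arrays and the 4 from Ddx6 to Ddx58 higher, while the groups of Dhx58 overlap; with ribosomal centring Dhx15 turns positive, and with poly-A centring Ddx6, Ddx17 and Ddx58 turn negative.

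Spliceosomal helicases were called in both directions, more often lower. All 11 were tested, and 5 were lower and 1 higher (45.5% and 9.09%, against 27.6% and 21.0% of all tested genes). The median of −0.17 became 0.04 with median centring and 0.61 with ribosomal centring. Dhx15, which takes spliceosomes apart and also acts on ribosome precursors, read 11.38, 11.52 and 11.45 against 11.10, 11.05 and 11.01. The groups did not overlap and the difference was −0.39 (SE 0.06, adjusted p = 0.000354), though the other Dhx15 probe set differed by −0.03 and ribosomal centring turned the value to 0.38. Ddx41, a helicase of late splicing complexes whose mutations are known from myeloid neoplasms, read 6.02, 5.79 and 5.68 against 5.20, 5.15 and 5.01. It fell 1.64-fold (−0.71, SE 0.14, adjusted p = 0.00282), and turned to 0.06 with ribosomal centring. Dhx35, also of late splicing complexes, read 4.33, 4.59 and 4.58 against 4.06, 3.89 and 3.84 (−0.57, SE 0.14, adjusted p = 0.00704; 0.20 with ribosomal centring). Ddx23 and Ddx46 fell as well, and Dhx16 was not called.

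Ddx17 and Ddx5 are close paralogues that serve splicing, transcription and microRNA processing. Ddx17 read 11.86, 11.72 and 11.83 in GFP_min and 12.05, 12.09 and 12.05 in GFP_plus, without overlap. The rise of 0.26 (SE 0.05, adjusted p = 0.00238) rested on 1 of 3 tested probe sets, the others differing by 0.08 and −0.19. The called set is of the kind marked as able to bind related transcripts, and the others are not. The mean of the 3 differed by 0.05 and was not called (adjusted p = 0.549), and poly-A centring turned the value to −0.16. Ddx5 read 12.80, 12.55 and 12.88 against 12.92, 13.21 and 12.86, with overlapping groups and a difference of 0.26 (limma adjusted p = 0.062). Of its 4 tested probe sets 2 were called higher (0.49 and 0.63), and both carry that mark. The brightest was called after quantile normalization (0.32), with median (0.46) and ribosomal centring (1.03), and without GFP_min c (0.33) or GFP_plus c (0.32), and the gene was called by the mean of its probe sets (0.40). The value turned to −0.17 with poly-A centring.

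The other splicing helicases whose differences opposed the median of their group were not called. Dhx38, the homologue of yeast Prp16, was 6.97 ± 0.30 and 7.41 ± 0.49, the widest spread among these members. Its difference of 0.44 (limma adjusted p = 0.160) was called without GFP_plus b (0.67) and with array weights (0.51). It was also called with median (0.64) and ribosomal centring (1.21). The other tested Dhx38 probe set differed by −0.09 and was not called. Dhx8, which releases spliced mRNA, differed by 0.10 and Ddx42 by 0.02, and both turned negative with poly-A centring (−0.32 and −0.41). Dhx8 was −0.03 without GFP_plus b and Ddx42 was −0.06 without GFP_min c.

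Among 25 tested core spliceosome proteins 13 were lower and 2 higher (52% and 8%, against 27.6% and 21.0% of all tested genes). The median was −0.30 as deposited and 0.48 under ribosomal centring. Without GFP_min b the counts were 10 and 1, and 1 was also higher without GFP_plus a or GFP_plus b. The smallest adjusted p-values were those of the Sm proteins Snrpf (−1.13), Snrpg (−0.75) and Snrpb (−0.65). Among G-patch proteins, the partners that switch on DEAH-box helicases, 2 of 19 tested were lower and 3 higher. The shares were 10.5% and 15.8%, against 27.6% and 21.0% of all tested genes. The median of −0.02 was 0.02 after quantile normalization, 0.75 with ribosomal and −0.44 with poly-A centring. These counts turned on single samples: 3 were lower and 1 higher without GFP_min b, 2 lower and 1 higher without GFP_plus a or GFP_plus b, and 1 lower and 2 higher without GFP_min a, GFP_min c or GFP_plus c. Pinx1, a G-patch protein of the nucleolus, lay under the medians of all GFP_plus arrays and was at least 1.53-fold lower there. Son, a splicing cofactor, rose by 0.19, and Gpatch8 fell by 0.44.

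Helicases of mRNA export, translation and decay were called in both directions. Of 9 genes 8 were tested, and 1 was higher and 2 lower (12.5% and 25%, against 21.0% and 27.6% of all tested genes). Their median was −0.12, turning to 0.08 with median and 0.65 with ribosomal centring. The lower count was 1 without GFP_min a, GFP_min c, GFP_plus a or GFP_plus c. Ddx6, which represses translation and activates decapping in P-bodies, read 11.52, 11.52 and 11.60 against 12.00, 12.00 and 11.87. It rose 1.33-fold without overlap (0.41, SE 0.06, adjusted p = 0.000234), and of its other tested probe sets 1 was called (0.38) and 1 was not (0.46). Poly-A centring, however, took the difference to −0.01.

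Dhx36, which unwinds G-quadruplexes, read 9.04, 9.16 and 9.22 against 8.92, 8.77 and 8.53. Its fall of 0.40 on the log2 scale (SE 0.11, adjusted p = 0.0148) was not called without GFP_min c (−0.36) or with median centring (−0.19), and turned to 0.38 with ribosomal centring. Ddx19b, which releases mRNA at the nuclear pore, read 2.97, 3.14 and 2.93 against 2.71, 2.80 and 2.48. Since all its GFP_plus values lay below the array medians, it was at least 1.11-fold lower, with a measured difference of −0.35 (adjusted p = 0.0309). That call was lost without GFP_min a (−0.37), GFP_min b (−0.28), GFP_plus a (−0.37) or GFP_plus c (−0.26), and with median centring (−0.15), and the value turned to 0.42 with ribosomal centring.

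Dhx34, of nonsense-mediated decay, read 4.58, 4.39 and 4.63 against 4.30, 4.27 and 4.18, a difference of −0.28 (limma adjusted p = 0.111) that turned to 0.49 with ribosomal centring. The export helicases Ddx39a and Ddx39b, near-identical paralogues, differed by −0.15 (10.21 ± 0.14 and 10.06 ± 0.03, adjusted p = 0.156) and 0.03 (10.66 ± 0.06 and 10.69 ± 0.10, adjusted p = 0.751). Neither was called on the deposited scale, and the brightest probe set of each is of the kind marked as able to bind related transcripts. Ddx39a was called without GFP_min b (−0.23) and with array weights (−0.18), and 2 of its 4 tested probe sets were called lower. The called sets differed by −0.48, without that mark, and by −0.30, with it. The Ddx39a difference turned to 0.05 with median and 0.62 with ribosomal centring. Ddx39b was called higher with median (0.23) and ribosomal centring (0.80), and turned to −0.39 with poly-A centring, −0.01 without GFP_min c and −0.02 without GFP_plus c. Ddx3x, which helps scan structured mRNA leaders, was 12.26 ± 0.05 and 12.36 ± 0.09, a difference of 0.10 (limma adjusted p = 0.172). It was called with median (0.30) and ribosomal centring (0.87) and was −0.33 with poly-A centring. The other tested Ddx3x probe sets differed by 0.09 and −0.22, and neither was called. Dhx29 was not called, and Ddx25 lay below the array medians in both groups and was not tested.

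Of 21 tested partner proteins of DEAD-box helicases 9 were lower (42.9%, against 27.6% of all tested genes). Their median was −0.23, or 0.54 under ribosomal centring. The count was 4 without GFP_min a or GFP_plus a and 6 without GFP_min c or GFP_plus b. Rtcb, the tRNA ligase that works with Ddx1, fell by 1.01, Thoc1, of the export complex that holds Ddx39b, by 1.02 and Lsm14b, a partner of Ddx6, by 0.78. Of 18 tested RNA helicases with other symbols 7 were lower and 5 higher (38.9% and 27.8%, against 27.6% and 21.0% of all tested genes). Their median was 0.14, or −0.29 under poly-A centring. The higher count was 2 without GFP_min a or GFP_plus a and 3 without any other sample, and the lower count was 5 or 6. Among them Mov10, a decay helicase of the RNA-silencing machinery, rose by 1.43, while the translation helicase Eif4a1 fell by 0.63 and the double-stranded RNA sensor Ifih1 by 0.62.

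Of the 3 helicases of innate RNA sensing, 2 were higher in GFP_plus (66.7%, against 21.0% of all tested genes). Their median was 0.36 (−0.06 under poly-A centring). The count was 1 without GFP_min c, GFP_plus b or GFP_plus c. Ddx60, an interferon-induced cofactor of RNA sensing, read 8.29, 8.12 and 8.34 in GFP_min and 9.04, 9.03 and 9.03 in GFP_plus. The GFP_plus arrays were almost equal and well above GFP_min, a 1.72-fold rise (0.78, SE 0.09, limma adjusted p = 8.45e-05), and its second probe set differed by 0.67. It was the largest rise in the family. Under poly-A centring it kept its sign at 0.36 but not its call.

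Ddx58 encodes RIG-I, which detects viral RNA with a free 5′ triphosphate. Its values were 7.61, 7.56 and 7.42 against 7.78, 7.93 and 7.96, without overlap, a rise of 0.36 (SE 0.11, adjusted p = 0.0184). The call was lost without GFP_min c (0.31), GFP_plus b (0.34) or GFP_plus c (0.33), and the value turned to −0.06 with poly-A centring. All 3 tested Ddx58 probe sets were called higher, by 0.36 to 0.64. Dhx58 encodes LGP2, which lacks RIG-I's signalling domains and tunes the pathway. It read 8.21, 8.24 and 7.86 against 7.77, 7.89 and 7.82, with GFP_min c inside the GFP_plus range. The difference of −0.28 (adjusted p = 0.0907) was called lower without GFP_min c (−0.40) and turned to 0.50 with ribosomal centring.

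Of 10 other tested genes of the RIG-I-like receptor pathway 4 were lower and 1 higher (40% and 10%, against 27.6% and 21.0% of all tested genes). Their median was −0.22, or 0.55 under ribosomal centring. The lower count was 2 without GFP_min a, GFP_plus a or GFP_plus c and 3 without GFP_min b or c, and the count of 1 higher held without GFP_plus c but without no other sample. Mavs, the mitochondrial adaptor through which RIG-I signals, fell by 1.85 (5.47 to 3.62), the sister sensor Ifih1 (MDA5) by 0.62 and the RIG-I ubiquitin ligase Rnf135 by 0.41. The Mavs probe set is of the kind marked as able to bind related transcripts. Interferon-stimulated genes went both ways, with 8 of 22 tested higher and 9 lower (36.4% and 40.9%, against 21.0% and 27.6% of all tested genes). Their median was −0.02 (0.01 without GFP_min b, 0.75 with ribosomal and −0.45 with poly-A centring). Mx1 fell by 5.08 and Xaf1 by 1.49, whereas Rsad2 rose by 0.70. The rises of Ddx60 and Ddx58 stood beside interferon-stimulated genes of either direction.

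Members in transcription, tRNA processing, snRNP assembly and genome upkeep were all tested, and 3 fell and 1 rose (median −0.39, turning to 0.38 with ribosomal centring). The shares were 75% and 25%, against 27.6% and 21.0% of all tested genes. Only 1 was lower without any 1 of the GFP_min samples or GFP_plus a, and 2 without GFP_plus c. Ddx1, of the tRNA ligase complex, read 7.21, 7.78 and 7.44 against 6.74, 6.72 and 6.86 (−0.70, SE 0.15, adjusted p = 0.00383). GFP_min b was the highest, the groups did not overlap, and ribosomal centring turned the value to 0.07. Ddx1's second probe set differed by −0.02.

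Ddx20, or Gemin3, of the SMN complex that builds snRNPs, read 5.86, 5.78 and 6.00 against 5.09, 5.60 and 5.56. GFP_plus a was the lowest, and the fall of 0.46 on the log2 scale (limma adjusted p = 0.0457) lost its call without GFP_min a (−0.47), GFP_min b (−0.51), GFP_min c (−0.40) or GFP_plus a (−0.30), after quantile normalization (−0.26) and with median centring (−0.26). Dhx9, RNA helicase A, read 10.21, 10.12 and 10.09 against 9.68, 10.07 and 9.71, with GFP_plus b close to GFP_min. The difference of −0.32 (adjusted p = 0.0291) lost its call without GFP_min a (−0.29), GFP_min b (−0.33), GFP_min c (−0.34), GFP_plus a (−0.25) or GFP_plus c (−0.26), and with median centring (−0.12). With ribosomal centring Ddx20 turned to 0.31 and Dhx9 to 0.46. Dhx9's other tested probe set was called lower, at −0.91.

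Ddx11 carries the family name but is a DNA helicase of sister chromatid cohesion. It read 4.74, 4.75 and 4.65 against 5.33, 5.34 and 4.98, a rise of 0.50 (SE 0.15, adjusted p = 0.0192). The call was lost without GFP_min c (0.47), GFP_plus a (0.45) or GFP_plus b (0.44) and with poly-A centring (0.08).

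Of 4 members placed in none of these roles, 3 fell (75%, against 27.6% of all tested genes). Only 1 was lower without GFP_min a, GFP_min b or GFP_plus a, and 2 without GFP_min c or GFP_plus c. Their median was −0.52, or 0.25 under ribosomal centring. Dhx32 read 3.47, 3.20 and 3.35 against 2.80, 2.87 and 2.49 (−0.62, SE 0.13, adjusted p = 0.00309), and GFP_plus a and c lay below their array medians. Dhx57 read 5.54, 5.55 and 5.10 against 4.51, 5.05 and 4.81, with GFP_min c close to the GFP_plus values. The Dhx57 difference of −0.60 (adjusted p = 0.024) lost its call without GFP_min a (−0.53), GFP_min b (−0.53) or GFP_plus a (−0.46), after quantile normalization (−0.41) and with median centring (−0.40).

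Ddx59 read 4.27, 4.34 and 4.49 against 3.69, 4.14 and 3.93, without overlap. Its difference of −0.44 (limma adjusted p = 0.0355) lost its call without GFP_min a (−0.49), GFP_min b (−0.46), GFP_min c (−0.38), GFP_plus a (−0.33) or GFP_plus c (−0.45), after quantile normalization (−0.28) and with median centring (−0.24). Ribosomal centring turned Dhx32 to 0.16, Dhx57 to 0.17 and Ddx59 to 0.33. Dhx40 read 10.12, 10.14 and 10.10 against 10.35, 10.22 and 10.31, higher on every GFP_plus array by a small margin. The difference of 0.17 (adjusted p = 0.0547) was called without GFP_plus b (0.21), with array weights (0.20) and with median (0.37) and ribosomal centring (0.95), and turned to −0.25 with poly-A centring. The germ line helicases Ddx4 and Ddx43 lay below the array medians in all 6 samples and were not tested.

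Several members are read by more than 1 probe set, which gives a second view of each. Of 113 probe sets 91 were tested, and 25 members had several. Among the 17 called members with several tested probe sets, all probe sets shared the gene's call in 7, and no probe set of these genes was called in the opposite direction.

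Promoter windows of 300 bases, from 250 before to 50 after a start, were found for 45 of the 51 members, and Ddx6, Ddx11, Ddx23, Ddx39a, Dhx38 and Dhx58 had none. Both strands were searched for 4 motifs, chosen with the expression results known. The interferon response core was in 3 members, Ddx58, Ddx60 and Ddx49, or 6.67% of the members with a window, against 3.86% of the tested genes with one and 3.44% of all 32851 windows. Ddx60's matches begin 53 and 19 bases before the start and Ddx58's lies just after it. Ddx49, which fell, also holds the core. Its listed matches may be the same site read from different starts, because the 45 members had 56 windows.

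The ETS site CCGGAAG was in 19 of 45 members (42.2%), against 21.0% of the tested genes with a window and 8.86% of all windows. It was in 8 of 16 ribosome assembly helicases. Of these Ddx10, Ddx27, Ddx49, Ddx54 and Ddx55 fell, Ddx47 and Ddx50 were not called, and Dhx37 was not tested. The others were Ddx1, Dhx9, Dhx30, Dhx35 and Dhx36, which fell, Ddx17, which rose, and Ddx5, Ddx39b, Dhx8, Dhx16 and Dhx34, which were not called. The E-box CACGTG was in 7 members (15.6%; 11.9% of tested genes and 7.15% of all windows), and Dhx33 was the ribosome assembly helicase with it. Of these 7, Ddx4 and Ddx25 were not tested. The NRF1 site, GCGC on each side of AT, was in 2 members, Dhx34 and the untested Dhx37 (4.44%; 2.52% of tested genes and 0.971% of all windows). For all 4 motifs the member shares include untested members, so they are not of the same kind as the shares of tested genes.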

How the data were processed

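Sorted marrow cells gave total RNA that was biotin-labelled for Affymetrix arrays, per the labels' protocols. The authors deposited log2 expression values for 45101 probe sets on 6 arrays. GCRMA is named in the submitters' processing notes. Its version and settings were not given in the sources used here. Log2 was read from the range of the values, which were used as deposited. Names came from the platform annotation at GEO (34945 with 1 symbol, 932 with several), with symbols updated through a RefSeq table of GRCm38.p6.

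Testing was limited to the 22956 probe sets that exceeded the array median on at least 3 of 6 arrays. GFP_plus minus GFP_min was fitted over all of these with limma 3.58.1 in R 4.3.3 (linear model per probe set, moderated by eBayes with its trend option). P-values were adjusted by Benjamini-Hochberg and read at a threshold of 0.05. A gene was read by its brightest probe set. The fit was tried on simulated arrays in which few genes changed, as many up as down. That setting differs from these data and leaves the scaling of the arrays untested. Where a group lay below all its array medians, the fold is a bound against those medians.

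The members, role lists and context lists were chosen with earlier results of these data known, and no set test was run. Values were given for up to 4 members of each role with the smallest adjusted p, members changed by at least 1 log2, members opposing their role and paralogue pairs, and for up to 3 genes of each context list. Alternatives changed the filter, variance model, array weights, scaling, probe sets, replicate block and samples. Figures used matplotlib 3.10.9 in Python 3.11.15.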

Additional observations from a re-analysis of the deposited data

How the results depend on the processing

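The precision of every value is limited by 3 arrays a group. Of the alternatives, the scalings changed most. With ribosomal centring 27 helicases were higher and 2 lower (8495 and 833 of all tested genes), with median centring 10 and 17 (4471 of all genes higher), and with poly-A centring 0 and 36 by limma (1 and 38 at an unadjusted p under 0.05; 280 and 5268 of all genes). The helicase median was −0.19 with median centring, 0.38 with ribosomal centring and −0.82 with poly-A centring. Ribosomal centring turned Ddx1 (0.0724), Ddx19b (0.42), Ddx20 (0.31), Ddx39a (0.62), Ddx41 (0.0631), Ddx50 (0.68), Ddx54 (0.17), Ddx59 (0.33), Dhx15 (0.38), Dhx32 (0.16), Dhx34 (0.49), Dhx35 (0.20), Dhx36 (0.38), Dhx57 (0.17), Dhx58 (0.50) and Dhx9 (0.46). Poly-A centring turned Ddx17 (−0.16), Ddx39b (−0.39), Ddx3x (−0.33), Ddx42 (−0.41), Ddx5 (−0.17), Ddx58 (−0.0590), Ddx6 (−0.0127), Dhx40 (−0.25) and Dhx8 (−0.32). Median centring turned Ddx39a (0.0524) and Ddx50 (0.10), and the mean of probe sets turned Ddx3x (−0.0120). Each centring adds a constant to every difference. The mean of probe sets takes in a Ddx3x probe set that differed by −0.22, beside 0.10 and 0.09 at the others. With 1 sample left out, 20 to 25 helicases were lower and 4 to 5 higher, and the uncalled differences of Ddx39b (−0.0212 to 0.0805), Ddx42 (−0.0638 to 0.0604) and Dhx8 (−0.0284 to 0.1793) spanned 0. With the replicate letter as a block, 22 were lower and 4 higher, and Ddx20, Ddx58, Ddx59 and Dhx9 lost their calls among the named members. Samples of the same letter deviated in opposite directions (correlations −0.18, −0.30 and −0.22), and 0 of 6 samples correlated best with their own letter. These values gave no sign that the letters pair the samples. They cannot settle it, because deviations from a mean of 3 arrays depend on each other. The other filters, the variance model, array weights, quantile normalization and the mean of probe sets left the counts of helicases higher and lower within 1.5 times, as 5 to 7 and 22 to 28.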
